A study of Mus musculus with 8 samples.

Results

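The 10 genes described here are Trp53, which encodes the transcription factor p53, and 9 genes that p53 is known to activate: Mdm2, Cdkn1a, Ccng1, Gadd45a, Sfn, Bax, Bbc3, Perp and Sesn2. They were taken by name as rows of a count table of 16647 gene rows, and all 10 rows were found. The cells are Tri-PyMT cells, a mouse mammary tumour line cultured from an animal that carried the transgenes MMTV-PyMT, Fsp1-cre and Rosa26mT/mG together. The viral PyMT oncogene is driven by a mammary promoter, and Cre recombinase by the promoter of Fsp1, which is another name for S100a4. The mT/mG reporter makes a red membrane protein (RFP) before Cre acts and a green one (GFP) once Cre has removed the red cassette, so both populations carry all of these alleles and the labels name no treatment. Cells were sorted into an RFP+ and a GFP+ population and profiled by Drop-seq, which counts polyadenylated RNA per barcoded droplet. Each population has 2 libraries, each run on 2 lanes (8 samples in the labels), and the library is the replicate. Whether the libraries stem from separate cultures is not stated, and the p-values thus rest on library spread alone, which may be technical.

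After cells under 500 counts or with at least 20% mitochondrial counts were left out, 7390 of 7400 cells remained, with 2550319 to 3081009 counts per library and medians of 1166 to 1358 counts per cell. Only 2 cell barcodes occurred in more than 1 library. The reporter rows went against the labels: the transcript row named for GFP was at 590 to 612 CPM (counts put on the same total for every library) in RFP+-labelled libraries and at 99.7 to 104 in GFP+-labelled ones, and the row named for RFP at 132 to 137 against 2943 to 3053. All directions given here follow the labels, not the reporters. Of the epithelial markers tested, all 9 were lower in GFP+-labelled libraries, and all 9 mesenchymal markers were higher. The epithelial list of 11 genes summed to 2262 and 2339 CPM in RFP+-labelled libraries and to 979 and 923 in GFP+-labelled ones. The part of that shift in the results below was not tested. A split of cells by their keratin counts further on describes the shift only in part, since transcripts can be missed in shallow cells. Markers of immune, endothelial, fibroblast and erythroid cells had 13 rows in the table, and their lists summed to at most 12.4 CPM in any library. Lyz2 and Alas2 were at 0 in every library, Pecam1 reached 1 count and Ptprc 2, and the largest was Itgam, at 30 counts in a library.

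p53 is kept scarce in unstressed cells by Mdm2, a ubiquitin ligase that marks it for destruction and whose own gene p53 switches on. DNA damage, oncogenic signalling and other stress release p53 from Mdm2, and the accumulated protein activates genes of cell cycle arrest, cell death, adhesion and metabolism. Control is largely through protein stability, so the level of Trp53 transcript is a poor gauge of p53 activity, and the transcripts of its targets are usually read in its place. Many targets also have other regulators: Sfn and Perp belong to epithelial programmes driven by the p53 relative p63.

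p53 binds a pair of 10-base sequences, here called decamers, that lie next to each other. Promoter sequences from RefSeq (build GRCm38.p6, 250 bases before to 50 after a gene's start) were found for 9 of the 10 genes, in 12 windows, and Perp is not among them. Pairs of adjacent decamers were searched with the C and G at the core of each decamer kept and at most 2 other mismatches to the p53 consensus. The consensus is its own reverse complement, so a search of 1 strand covers both. Such a pair was in 107 of all 32851 windows (0.326%), and among the members in a window of Cdkn1a and the window of Ccng1. Both are printed as the only such pairs among the members. Whether they bear on any measured level, or on the sharing of cells described further on, was not tested. Capitals mark the pair, each with 1 mismatch, and lower case the 20 bases on either side, 5′ to 3′ along the gene's strand.
Cdkn1a, plus strand, chr17:29090908-29090967: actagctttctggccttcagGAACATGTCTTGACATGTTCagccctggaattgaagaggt
Ccng1, minus strand, chr11:40755442-40755501: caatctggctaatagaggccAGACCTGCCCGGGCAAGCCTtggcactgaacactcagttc
The Cdkn1a pair spans bases 29090928 to 29090947. It lies 51 to 32 bases before the upstream of the gene's 2 RefSeq start sites, and 2822 bases before the downstream one. The Ccng1 pair spans bases 40755462 to 40755481, and lies 195 to 176 bases before the start site.

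A single decamer with no mismatch was in 8.36% of all windows. Besides Cdkn1a and Ccng1, it was in the windows of Mdm2, Bax, Trp53 and Gadd45a. Those of Mdm2 and Bax are shown as the feedback and death genes of the group, with the decamer in capitals.
Mdm2, minus strand, chr10:117710915-117710964: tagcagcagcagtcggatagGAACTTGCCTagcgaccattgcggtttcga
Bax, minus strand, chr7:45467070-45467119: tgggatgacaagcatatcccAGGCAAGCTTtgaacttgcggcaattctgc
A match is a description of the letters and not a measured binding site, and p53 sites outside these windows were not searched. The bare core CNNG was in 99.98% of all windows and tells nothing apart.

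Each library's cells were summed and the sums compared by edgeR's quasi-likelihood test, adjusted by Benjamini-Hochberg over all 7595 genes that reached 10 CPM in either population. Of the 10 genes, 8 passed that filter. Bax, Sfn and Perp fell and Ccng1 rose in GFP+-labelled libraries, and Trp53, Mdm2, Cdkn1a and Gadd45a did not pass at an adjusted p of 0.05. These 4 calls among 8 tested stand beside 30.5% of all tested genes called, 15.7% higher and 14.9% lower. Sfn, among the 4, passed the filter only through the RFP+-labelled side, so the count is no support by itself. Sfn also enters the median and the counts of members that follow. The median log2 fold of the 8 was -0.27, beside 0.0024 over all tested genes. The 2 libraries of one population lay wholly to one side of the other's for 7 of the 8, beside 65.0% of all tested genes. For 6 of the 8 the GFP+-labelled side was the lower one, beside 30.7% of all tested genes. The 6 include Sfn, and Trp53, whose libraries lay apart by a few CPM only. In bulk sums, fewer cells with a transcript and less RNA per cell cannot be told apart.

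**Figure D1:**
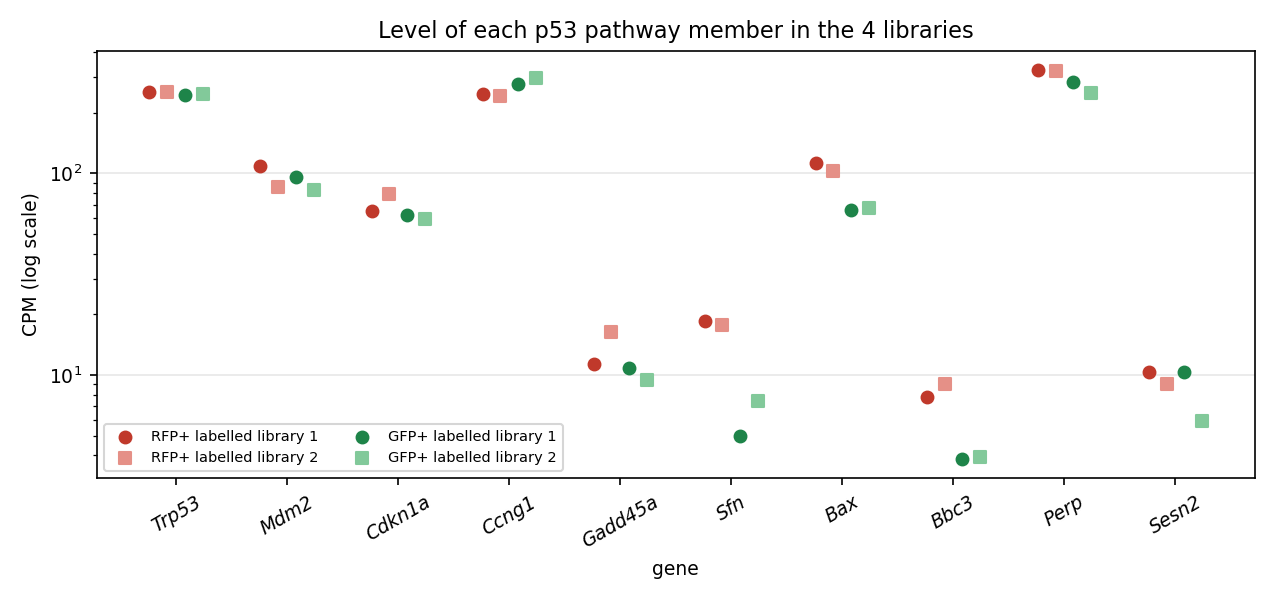
Level of each gene in CPM (log scale) in the 2 RFP+-labelled libraries (red) and the 2 GFP+-labelled ones (green), 1 point per library. Bax, Bbc3 and Sfn show green points well below red ones, Ccng1 shows them slightly above, and the 4 points of Trp53 lie between 245 and 253 CPM.

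All 10 genes are protein coding, and their coordinates are those of GRCm38 in GENCODE M21. Trp53 (chromosome 11, 69580359 to 69591873) was almost level across libraries. It was at 253 and 253 CPM in RFP+-labelled libraries and at 245 and 248 in GFP+-labelled ones, so GFP+-labelled libraries were lower by a margin of a few CPM. The log2 fold of GFP+ over RFP+ labelled libraries was -0.051 ± 0.066 (SE), with a 95% interval of -0.18 to 0.082 and an edgeR adjusted p of 0.587. The interval spans 0, which does not show equal levels, and the sign turned with length and GC offsets (0.075) and in keratin-positive cells (0.051). GENCODE M21 lists a processed pseudogene of Trp53, whose reads the authors' counting may or may not have kept apart.

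Mdm2 (chromosome 10, 117688875 to 117710758), the ligase that destroys p53 and is itself a p53 target, differed as much between libraries of a population as between populations. It was at 108 and 85.3 CPM in RFP+-labelled libraries and at 96.2 and 82.3 in GFP+-labelled ones. The groups overlapped. The log2 fold was -0.13 ± 0.11 (interval -0.35 to 0.082, edgeR adjusted p = 0.364), and without RFP+-labelled library 1 its sign turned, to 0.048 (adjusted p = 0.831).

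Among the arrest genes, Cdkn1a (chromosome 17, 29090976 to 29100727) encodes p21, the inhibitor of cyclin-dependent kinases that carries out p53's arrest. It was at 65.2 and 79.0 CPM in RFP+-labelled libraries and at 62.0 and 59.2 in GFP+-labelled ones. The populations did not overlap, but RFP+-labelled library 2 stood above the other 3. The log2 fold was -0.26 ± 0.12 (interval -0.50 to -0.025, adjusted p = 0.0862 by edgeR), which did not pass. Without RFP+-labelled library 1 it was -0.40 (adjusted p = 0.0228), and without RFP+-labelled library 2 it was -0.11 (adjusted p = 0.633). The call thus turned on which library labelled RFP+ was kept.

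Ccng1 (chromosome 11, 40748552 to 40755311) encodes cyclin G1, an atypical cyclin that recruits a phosphatase to Mdm2. It was the 1 member that rose. Its level was 249 and 243 CPM in RFP+-labelled libraries and 279 and 298 in GFP+-labelled ones, with no overlap. The rise was small, a log2 fold of 0.22 ± 0.066 (adjusted p = 0.0107 by edgeR). The adjusted p was 0.172 without GFP+-labelled library 2 (log2 fold 0.15), 0.0916 with offsets for transcript length and GC content, 0.206 in cells thinned to 1000 counts and 0.205 by DESeq2's Wald test, which called 11.0% of genes.

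Gadd45a (chromosome 6, 67035096 to 67037457) encodes a small protein that binds p21 and PCNA and restrains the G2 to M transition. It was low, with 35 and 49 counts in RFP+-labelled libraries and 28 and 24 in GFP+-labelled ones. Of the 49 counts, 14 came from a single cell, where no cell of another library had more than 2. The levels were 11.4 and 16.4 against 10.8 and 9.41 CPM. The log2 fold was -0.47 ± 0.26 (edgeR adjusted p = 0.177), and without RFP+-labelled library 2, which holds that cell, -0.17 (adjusted p = 0.754). E230016M11Rik overlaps Gadd45a on the opposite strand by 859 bases, and AC167363.2 does so with Cdkn1a by 1046. Since the strand setting of the counting is not known, their reads cannot be told apart.

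Sfn (chromosome 4, 133600556 to 133602168) encodes 14-3-3 sigma, a protein of stratified and glandular epithelia that holds mitotic cyclin complexes in the cytoplasm. It had the largest fold among the 8 tested members. It had 57 and 53 counts in RFP+-labelled libraries (18.5 and 17.7 CPM) and 13 and 19 in GFP+-labelled ones (5.00 and 7.45 CPM). The gap between populations was wider than any between libraries of 1 population. The log2 fold was -1.55 ± 0.27 (adjusted p = 2.18e-05 by edgeR). Its mean fell from 18.1 ± 0.542 (SD, n = 2) to 6.23 ± 1.73 CPM. Sfn thus passed the filter of 10 CPM only through the RFP+-labelled side, where it is high. With no filter its log2 fold was -1.55 (adjusted p = 0.00105 by edgeR, where 5.18% of genes were called lower).

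Among the death genes, Bax (chromosome 7, 45461697 to 45466898) encodes the protein that opens pores in the outer mitochondrial membrane. It was at 112 and 103 CPM in RFP+-labelled libraries and at 65.8 and 67.1 in GFP+-labelled ones. The libraries of each population lay close together and the populations far apart. The mean fell from 108 ± 6.54 (SD, n = 2) to 66.4 ± 0.873 CPM, a ratio of 0.617. The log2 fold was -0.71 ± 0.10 (interval -0.92 to -0.50, adjusted p = 6.01e-07 by edgeR), and DESeq2's Wald test called it too. Over the whole table the fold followed transcript length (Spearman's rho 0.36 across 7243 genes, which are not independent), and the Bax transcript used is 1100 bases long. With offsets for length and GC content the log2 fold was -0.47 (adjusted p = 0.000769 by edgeR). Gm45808, a gene on the same strand, overlaps Bax by 915 bases, and whose reads were counted there is not known.

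Bbc3 (chromosome 7, 16308393 to 16318205) encodes PUMA, which frees Bax and its relatives from their inhibitors. It was below the 10 CPM needed for the test, with 24 and 27 counts in RFP+-labelled libraries and 10 and 10 in GFP+-labelled ones. That is 7.79 and 9.03 against 3.85 and 3.92 CPM, with no overlap and a ratio of 0.462. When edgeR was run with no filter, the log2 fold was -1.12 with an adjusted p of 0.0356. With 10 to 27 counts a library, the depth behind these values is low.

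Perp (chromosome 10, 18845020 to 18857073) encodes a 4-pass membrane protein that p53 induces in death and p63 uses to build desmosomes, the junctions that tie epithelial cells together. It was at 325 and 322 CPM in RFP+-labelled libraries and at 286 and 251 in GFP+-labelled ones. Both GFP+-labelled libraries were lower, and they differed from each other by about as much as the first of them did from RFP+-labelled libraries. The log2 fold was -0.28 ± 0.066 (adjusted p = 0.000906 by edgeR), and DESeq2's Wald test gave an adjusted p of 0.0519.

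The structural genes of the desmosome were read beside Perp. Of 8 tested in a list of 13, 4 fell and none rose, where 14.9% of all tested genes fell, and the median log2 fold was -0.46. Jup, or plakoglobin, had a log2 fold of -1.24, Pkp1, a plakophilin, -1.15 and the cadherin Dsg2 -0.93, all 3 with population means of 5.23 to 17.2 CPM and named after their values were seen. These 3 passed the filter only through the RFP+-labelled side, so the count of 4 is no support by itself. With no filter their adjusted p by edgeR was 0.0142, 0.0132 and 0.0218. Jup and Pkp1 lost their call without GFP+-labelled library 2 (adjusted p = 0.0547 and 0.0505), and Dsg2 without GFP+-labelled library 1 (adjusted p = 0.0827). Dsp, the desmoplakin that ties desmosomes to keratin filaments, fell from 61.6 ± 2.87 to 44.8 ± 5.73 CPM (SD, n = 2), a log2 fold of -0.47 (adjusted p = 0.00412 by edgeR). Without GFP+-labelled library 2 that p was 0.0811. The log2 fold of Dsp was -0.16 (adjusted p = 0.765) in keratin-positive cells and -0.90 (adjusted p = 0.0254) in keratin-negative ones, a difference that is described here without a test. Pkp4 was at 67.1 ± 3.54 and 66.2 ± 7.10 CPM and did not pass.

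Sesn2 (chromosome 4, 132492032 to 132510501) encodes sestrin 2, which restrains the growth kinase mTORC1 under stress. It was too low to test, with 32 and 27 counts in RFP+-labelled libraries and 27 and 15 in GFP+-labelled ones. Gm12981 overlaps Sesn2 on the same strand by 6089 bases. The levels of Sesn2 were 10.4 and 9.03 against 10.4 and 5.88 CPM, so the groups overlapped, and edgeR with no filter gave a log2 fold of -0.27 (adjusted p = 0.66).

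**Figure D2:**
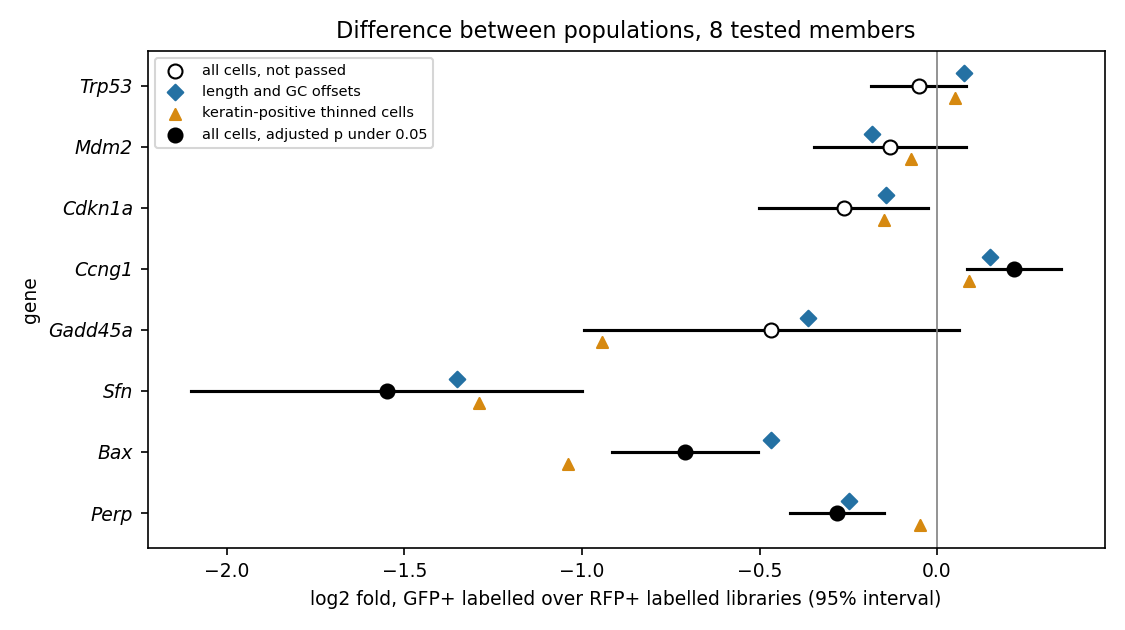
Log2 fold of GFP+-labelled libraries over RFP+-labelled ones for the 8 tested genes, with 95% intervals from edgeR (circles, filled where the adjusted p was under 0.05), and the log2 fold with length and GC offsets (diamonds) or in keratin-positive thinned cells (triangles). Bax moves from -0.71 to -1.04 in keratin-positive cells, while Perp moves from -0.28 to -0.049.

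The share of cells with a count was lower in both GFP+-labelled libraries for Bax, Sfn, Perp and Bbc3. For Gadd45a this held only in cells thinned to 1000 counts, and the share of Trp53 hardly differed. Each cell was thinned to 1000 counts, which kept 1233 to 1545 cells per library and left out 178 to 574 shallower ones. Intervals are exact Clopper-Pearson at 95% and cover counting error only. A count of Trp53 was found in 21.3% and 20.5% of cells labelled RFP+ and in 20.5% and 20.9% of cells labelled GFP+. The share was thus almost the same in all 4 libraries. Bax was found in 9.64% (8.22 to 11.2) and 9.14% (7.69 to 10.8) of cells labelled RFP+ and in 6.27% (5.07 to 7.66) and 6.0% (4.74 to 7.48) of cells labelled GFP+. These intervals were just apart. In cells thinned to 2000 counts they overlapped, from 15.1% in RFP+-labelled library 2 and up to 18.6% in GFP+-labelled library 1.

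Perp, at 27.3% and 27.1% against 24.1% and 21.7%, and Ccng1, at 21% and 21.6% against 23.3% and 25.8%, differed by a few percentage points in opposite directions. Cdkn1a was found in 5.50% and 7.31% of cells labelled RFP+ and in 6.84% and 5.6% of GFP+-labelled ones, and Mdm2 in 10.4% and 7.59% against 8.95% and 8.19%. For both, the populations overlapped. Sfn was found in 1.75% and 1.48% against 0.493% and 0.568% of cells, with intervals that overlap (from 0.916% in RFP+-labelled library 2, up to 1.17% in GFP+-labelled library 2), and Bbc3 in 0.841% and 0.914% against 0.423% and 0.568%. Gadd45a was found in 1.29% and 1.41% against 0.916% and 0.892%, and Sesn2 in 0.971% and 0.703% against 1.13% and 0.487%. With 2 libraries against 2, an exact permutation test cannot go below a two-sided p of 0.333, so none was used. Without thinning, Bax was in 15.0% and 13.9% of cells labelled RFP+ and in 9.96% and 9.01% of GFP+-labelled ones.

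**Figure D3:**
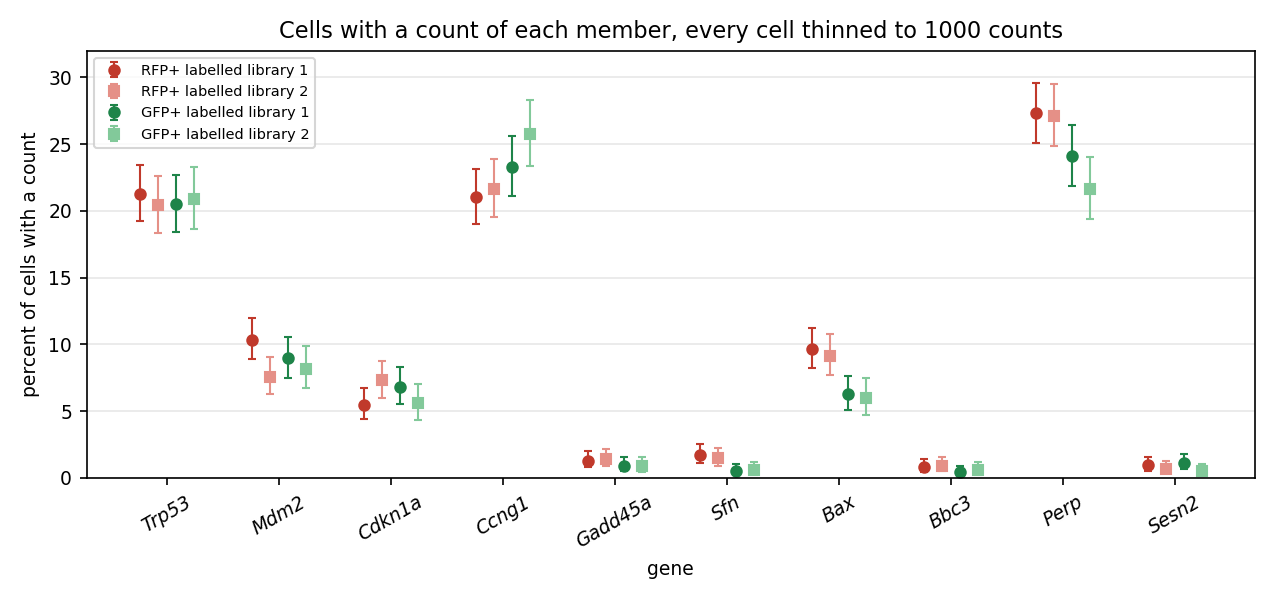
Percent of cells with at least 1 count of each gene after every cell was thinned to 1000 counts, per library, with exact 95% intervals for counting error. Bax is near 9% in RFP+-labelled libraries and near 6% in GFP+-labelled ones, while Trp53 is near 21% in all 4.

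At 1000 counts a cell, the counts of most members were spread over cells nearly as a Poisson law of the same mean would spread them. Counts this sparse can lie near that law even where cells differ, so this does not show that the cells are alike. In RFP+-labelled library 1, 78.7% of thinned cells had no Trp53 count where such a law gives 78.0%, and for Perp the values were 72.7% and 72.2%. The ratio of variance to mean, which is 1 under that law, was 1.02 to 1.08 for Trp53, 1.01 to 1.08 for Bax and 1.07 to 1.10 for Perp in the 4 libraries. It was 1.01 to 1.2 for Mdm2, 1.01 to 1.14 for Cdkn1a and 1.01 to 1.16 for Ccng1. In the 263 to 366 cells per library that could be thinned to 2000 counts, the ratio was 0.949 to 1.05 for Trp53 and 0.870 to 1.05 for Bax. It was 1.08 to 1.38 for Perp, 1.06 to 1.85 for Mdm2, 1.02 to 1.39 for Cdkn1a and 1.21 to 1.35 for Ccng1. For Perp and Ccng1 it was higher than at 1000 counts in every library. Mdm2 and Cdkn1a were mixed: Cdkn1a went from 1.13 down to 1.04 in RFP+-labelled library 1, and Mdm2 from 1.2 down to 1.06 in GFP+-labelled library 2. These are fewer and deeper cells, so the 2 depths do not compare the same cells. Gadd45a stood apart in RFP+-labelled library 2, at 2.18 for 1000 counts, where the single cell described above still held 6 counts after thinning. The most members of the 9 targets found in 1 thinned cell was 5, and 43.2% and 43.4% of cells labelled RFP+ and 45.7% and 47.9% of GFP+-labelled ones had none.

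Pairs of members in the same cell were counted against the number that the product of their shares gives within each library. Over all 45 pairs, 24 had at least 10 expected cells, and their ratios of observed to expected ran from 0.901 to 1.79 with a median of 1.09. Cdkn1a and Ccng1 were together in 113 cells where 80.8 were expected. Their ratio was 1.40, with an exact Poisson interval of 1.15 to 1.68 that covers counting error only. It was above 1 in all 4 libraries, with 24, 36, 25 and 28 cells observed against 17.9, 22.5, 22.6 and 17.8. Of the 24 pairs, 16 had a ratio above 1 and 6 exceeded the expected number in all 4 libraries. Among the 6 were Trp53 with Perp and Bax with Perp, so this is not particular to Cdkn1a and Ccng1. Pairs of genes outside the group were not counted, so there is no baseline for these numbers.

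Mdm2 and Ccng1 were together in 135 cells against 113 expected, a ratio of 1.2 (1.0 to 1.42), also above 1 in 4 of 4 libraries. Ccng1 with Sesn2 had the highest ratio of the 24 pairs, 1.79 (1.08 to 2.80), from 19 cells. Mdm2 with Sesn2, outside the 24 pairs, rested on 15 cells where 4.24 were expected. Its ratio was 3.54 (1.98 to 5.84) and above 1 in 4 of 4 libraries, from 2 to 7 cells a library. Pairs of Trp53 with its targets Ccng1, Bax and Mdm2 were near or below 1, at 0.994, 0.989 and 0.948, and with Perp and Cdkn1a slightly above, at 1.06 and 1.13. No test was made, the 45 pairs share cells and libraries, and weak excesses are no finding. Correlations over cells were all low. For the 6 members with at least 50 CPM in every library, the most alike of 3292 genes reached a mean Pearson's r of 0.064 at most, and none was above 0.1 in every library. By that ranking, Ccng1 was the first gene for Cdkn1a (mean r 0.056) and Mdm2 the first for Ccng1 (0.060). Kif20b (0.053) and Kif2c (0.059), which are not members, came next to them. The first genes for Mdm2, Trp53, Bax and Perp were not members of the group: Dcxr (0.064), Wdr74 (0.052), Pik3c2a (0.058) and Ly6e (0.062).

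**Figure D4:**
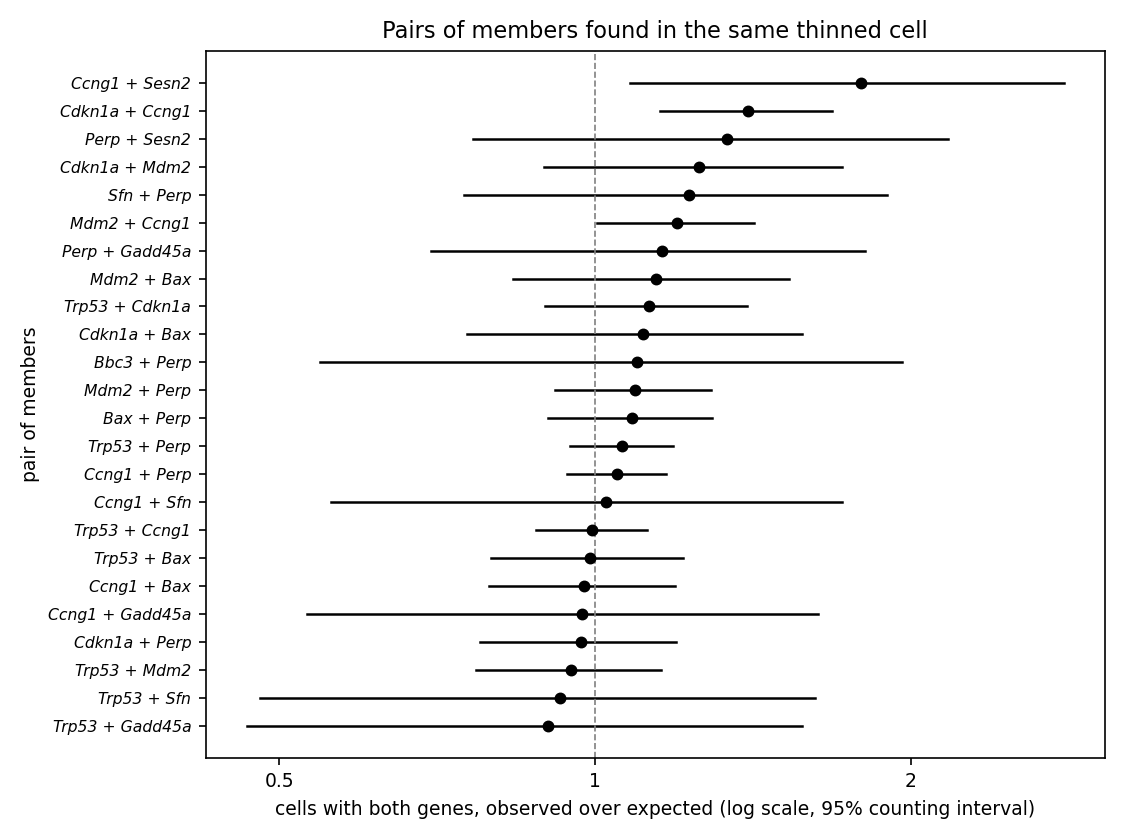
Cells with both genes of a pair, observed over expected from the shares within each library (log scale, all 4 libraries summed, exact 95% Poisson interval), for the 24 pairs with at least 10 expected cells. The pair Cdkn1a and Ccng1 is at 1.40 with an interval above 1, and pairs of Trp53 with Ccng1, Bax or Mdm2 lie at 0.948 to 0.994.

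Cells with a keratin count were fewer in GFP+-labelled libraries. Thinned cells were therefore split by whether they had a count of Krt8 or Krt18, keratins of simple epithelia. Cells with such a count were 1091 of 1545 and 1007 of 1423 in RFP+-labelled libraries, and 533 of 1419 and 450 of 1233 in GFP+-labelled ones. A transcript can be missed in a thinned cell, so keratin-negative cells may still hold the keratin. Epcam was higher in keratin-positive cells of every library (ratios of 1.14 to 1.69) and Vim lower (0.809 to 0.881). Keratin-negative cells labelled RFP+ still had more Epcam (335 and 315 CPM) than keratin-positive ones labelled GFP+ (298 and 271). They also had less Vim (2251 and 2070 against 2929 and 3040), so the split follows the epithelial shift only in part. Among keratin-positive cells Bax was at 113 and 103 CPM in RFP+-labelled libraries (123 and 104 counts) and at 60.0 and 44.4 in GFP+-labelled ones (32 and 20 counts). Among keratin-negative cells it was at 83.7 and 79.3 against 72.2 and 72.8 CPM, from 33 to 64 counts.

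In an edgeR fit over keratin-positive cells alone, where 7.23% of genes were called, Bax had a log2 fold of -1.04 (adjusted p = 0.000785). Over keratin-negative cells alone, a fit added after the data were seen in which 7.08% of genes were called, it had one of -0.18 (adjusted p = 0.731). The difference between these folds was tested in a fit with libraries as blocks, also added after the split was seen. It was -0.86 ± 0.31 on the log2 scale, with an unadjusted p of 0.00601 and an edgeR adjusted p of 0.988, so it did not pass. That fit called 0 of 8019 genes (0.0%), and 372 had an unadjusted p under 0.05.

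Among keratin-positive cells Perp was at 344 and 324 CPM in RFP+-labelled libraries and at 362 and 282 in GFP+-labelled ones, where the groups overlap. Among keratin-negative cells it was at 284 and 322 against 245 and 238 CPM. The edgeR log2 folds were -0.049 (adjusted p = 0.849) and -0.33 (adjusted p = 0.0733), and their difference of 0.28 ± 0.15 had an unadjusted p of 0.0686 (adjusted p = 0.988).

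Sfn was higher in keratin-positive than in keratin-negative cells of every library. The ratios were 1.83 and 2.75 in RFP+-labelled libraries, where 5 and 3 counts stood behind the keratin-negative levels. In GFP+-labelled ones they were 1.25 and 4.35, where 2 to 5 counts stood behind each level. In keratin-positive cells the log2 fold of Sfn between populations was -1.29 (edgeR adjusted p = 0.118). Trp53 was also higher in keratin-positive cells of all 4 libraries, by small ratios of 1.09 to 1.19, and in those cells its log2 fold between populations was 0.051 (adjusted p = 0.856). Ccng1 had log2 folds of 0.090 (adjusted p = 0.708) and 0.29 (adjusted p = 0.161) in keratin-positive and keratin-negative cells.

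**Figure D5:**
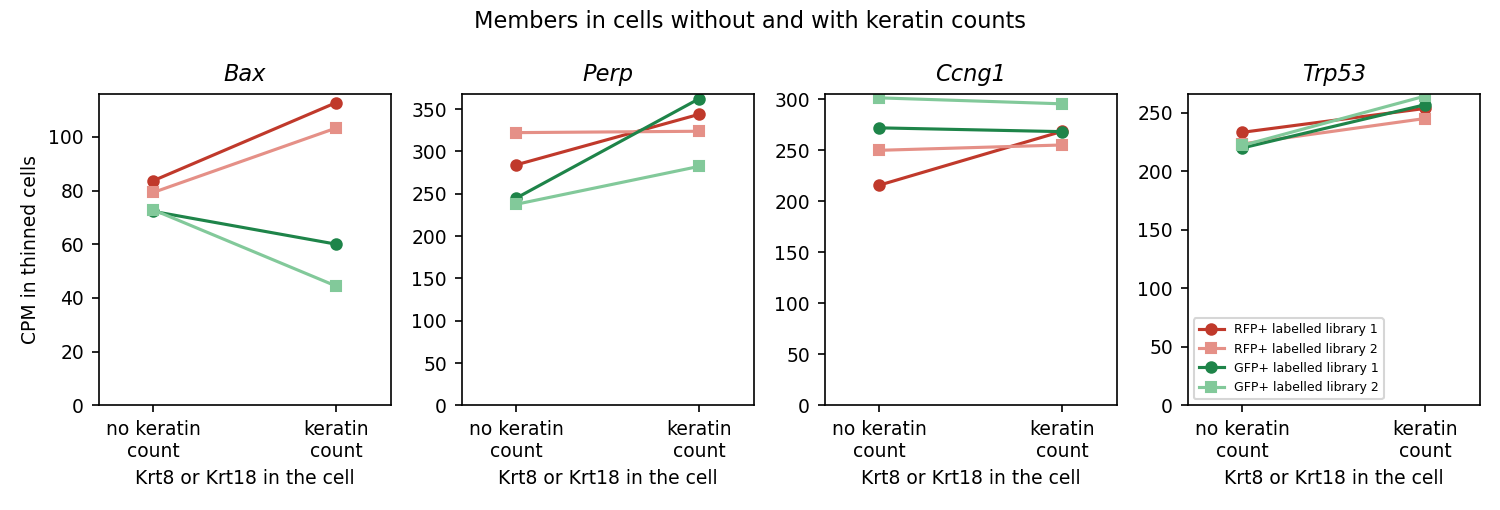
Level in CPM of Bax, Perp, Ccng1 and Trp53 in thinned cells without and with a count of Krt8 or Krt18, 1 line per library. The Bax lines of RFP+-labelled libraries go up to 103 and 113 CPM and those of GFP+-labelled libraries go down to 44.4 and 60.0.

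p21 represses many mitotic genes through the DREAM complex, so a list of 18 such genes was read beside Cdkn1a. Of 17 tested between populations, 6 fell, 2 rose and 9 did not pass, beside 14.9% and 15.7% of all tested genes. Their median log2 fold of 0.024 was near the 0.0024 over all tested genes, so the median did not share the lean of the counts. Cdc20, the activator of the ligase that ends mitosis, fell from 151 ± 2.35 to 100.2 ± 2.42 CPM (SD, n = 2), a log2 fold of -0.60, and Cdk1, the mitotic kinase, fell by 0.39 on the log2 scale. Aurkb had the same log2 fold of -0.39, whose edgeR adjusted p of 0.0142 was 0.213 without RFP+-labelled library 1 and 0.0685 without GFP+-labelled library 2. In thinned cells Aurkb was at -0.16 (adjusted p = 0.583), and 8 of its 15 alternatives ended the call. Within libraries, cells with and without a Cdkn1a count carried nearly the same amount of these transcripts. The summed list was at 2929 and 3183 CPM in cells with Cdkn1a and at 2915 and 2791 in cells without it in RFP+-labelled libraries. In GFP+-labelled ones it was at 2680 and 2565 with and at 2713 and 2604 without. The ratios ran from 0.985 to 1.14, on 69 to 104 cells with Cdkn1a per library, so no lower mitotic level in cells with a Cdkn1a count was detectable at this depth.

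Some members differed with depth. Between the shallowest and the deepest of 4 equal bins of cells, Mdm2 went from 75.3 to 117 CPM in RFP+-labelled library 1 and from 71.4 to 90.6 in GFP+-labelled library 2, and was higher in the deepest bin of all 4 libraries. Ccng1 was also higher there in all 4, by ratios of 1.03 to 1.38. Cdkn1a was lower there in all 4, by ratios of 0.545 to 0.959. Bax was higher in the deepest bin of GFP+-labelled library 1 by a ratio of 1.89, and between populations it was lower in both GFP+-labelled libraries in each of these end bins. Trp53 moved by ratios of 0.890 to 1.05 only.

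Of 18 regulators of p53 tested, 3 rose, 2 fell and 13 did not pass, with a median log2 fold of 0.092. That share of calls is near the 30.5% of all tested genes. Atm, the kinase that signals DNA breaks to p53, rose from 23.4 ± 4.70 to 41.4 ± 1.92 CPM (SD, n = 2), a log2 fold of 0.81 (edgeR adjusted p = 0.000155), and Trp53bp1, another protein of break repair, had a log2 fold of 0.60. Both were named after their values were seen. Usp7, which removes ubiquitin from p53 and Mdm2, had a log2 fold of 0.30. With length and GC offsets the log2 folds were 0.54 for Atm (adjusted p = 0.0131), 0.35 for Trp53bp1 (adjusted p = 0.23) and 0.16 for Usp7 (adjusted p = 0.164). The adjusted p of Usp7 was 0.171 without RFP+-labelled library 2 and 0.0796 without GFP+-labelled library 1, and that of Trp53bp1 was 0.136 without RFP+-labelled library 1 and 0.465 without GFP+-labelled library 1. Rpl5 and Rpl11, ribosomal proteins that bind Mdm2 when ribosome assembly fails, fell by 0.27 and 0.28 on the log2 scale. With the offsets Rpl11 was at -0.10 (adjusted p = 0.0951). Processed copies of both genes exist in mice, so their counts are uncertain.

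Of 8 further arrest targets of p53 tested, 3 fell and none rose (median -0.12), where 14.9% of all tested genes fell. Gadd45b, a stress-induced relative of Gadd45a, fell from 77.1 ± 3.52 to 52.1 ± 5.08 CPM (SD, n = 2), a log2 fold of -0.58, which was -0.38 with length and GC offsets. Gadd45g was at 64.7 ± 0.237 and 73.6 ± 4.80 CPM and did not pass, although with the offsets its log2 fold of 0.41 did (edgeR adjusted p = 0.00623). Plk2 was at 129 ± 5.38 and 127 ± 9.59 CPM.

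Of 12 further death targets, 2 fell and 1 rose (median -0.25), a share of calls no higher than the 30.5% of all tested genes. The gene that rose was Casp1, the protease of inflammasomes, which went from 33.5 ± 0.487 to 79.6 ± 1.60 CPM (SD, n = 2), a log2 fold of 1.24 (adjusted p = 2.04e-10 by edgeR). The genes that fell, named after their values were seen, were Bid, a relay from death receptors to Bax, at -0.47, and Phlda3, an inhibitor of Akt, at -0.53. Siva1 was at 128 ± 5.63 and 126 ± 10.2 CPM.

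Of 9 metabolic and redox targets, 2 fell and 1 rose (median -0.28), again near 30.5%. Gpx1, a glutathione peroxidase, fell from 746 ± 23.3 to 567 ± 9.38 CPM (SD, n = 2), a log2 fold of -0.41 that was -0.19 with length and GC offsets. Sod2 was at 75.4 ± 3.50 and 74.6 ± 4.51 CPM.

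Of 7 DNA repair targets tested, 2 rose and none fell (median 0.27), where 15.7% of all tested genes rose. Pcna, the sliding clamp of replication, was at 446 ± 0.520 and 472 ± 16.9 CPM (SD, n = 2), and Ercc5, an excision repair nuclease, at 43.7 ± 0.691 and 53 ± 1.52 CPM. Neither passed. Over these 4 lists, 7 of 36 tested targets fell and 4 rose, which is about the 30.5% called over all tested genes and no result about p53 targets.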

How the data were processed

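The values are raw counts, 1 per gene and cell, as the file headers and whole numbers up to 342 show, and the authors pooled each library's lanes before they deposited the table. Per the labels' protocols, cells were captured by Drop-seq and sequenced from Nextera libraries; per the submitters' processing notes, the build was GRCm38. The aligner, the counter, its strand setting, the collapse of molecular identifiers and the selection of cells are not given in those sources, so counts may not be molecules.

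Cells with at least 500 counts and under 20% mitochondrial counts were kept, and doublets were not removed. Sums per library entered edgeR 4.0.16 under R 4.3.3 (quasi-likelihood, TMM factors, Benjamini-Hochberg, threshold 0.05). A gene was tested if it had 10 CPM in either population and 20 counts in all. The SE was derived from the fold and its F statistic. Alternatives were DESeq2 1.42.0, other filters and factors, thinned cells, length and GC offsets, and each library left out. The fit was tested on simulated data. Between libraries of a population, chi-square per degree of freedom was 1.36 and 1.41, above sampling noise. Lengths and coordinates come from GENCODE M21.

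Named genes are all 10 members and, in each other list of the pathway, the 3 with the largest absolute fold at 50 CPM or more; some of these are not reported here. Members and lists were chosen with earlier results of these data known, and the search for adjacent decamers after the promoter sequences were seen.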

Additional observations from a re-analysis of the deposited data

Results flagged for a closer look

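In the split of thinned cells by a Krt8 or Krt18 count, every library of one population went one way for Bax and every library of the other the opposite way. Its level in keratin-positive over keratin-negative cells was 1.35 and 1.3 in RFP+-labelled libraries and 0.831 and 0.611 in GFP+-labelled ones. The test of this difference gave an unadjusted p of 0.00601 and an edgeR adjusted p of 0.988. Ccng1 did the same at a smaller size, with ratios of 1.24 and 1.02 against 0.986 and 0.981, and its difference had an edgeR adjusted p of 0.988 (unadjusted p = 0.215). The summed p21-DREAM list in cells with over cells without Cdkn1a was at 1.005 and 1.14 in RFP+-labelled libraries. In GFP+-labelled ones it was at 0.988 and 0.985, a difference that was not tested. Each of these was flagged because its ratios lay on opposite sides of 1 in the populations, so that split is no support by itself. How many other genes split this way was not counted.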

How the results depend on the processing

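The 4 calls among the members rest on 2 libraries a population, and a left-out library leaves 1 in its arm, assumed to vary like the others. Of 114 values of the 8 tested members over 15 alternatives, 98 kept direction and side of the threshold, 12 lost a call, 1 gained one (Cdkn1a without RFP+-labelled library 1) and 3 turned sign, none of them called. Depth limits Bbc3, Sesn2, Sfn and Gadd45a most.

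Over all tested genes, 1190 were higher and 1129 lower. These counts were 780 and 706 in thinned cells, 298 and 254 in keratin-positive cells, 276 and 264 in keratin-negative cells (added after the data were seen), and 353 and 368 by DESeq2's Wald test. With a library left out they ran from 872 to 929 and from 797 to 920.

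Ccng1, the 1 member called higher, was lost (0 called) with no filter, in thinned cells, in both keratin classes, with length and GC offsets, by DESeq2's Wald test and without GFP+-labelled library 2, so that leaving out a library gave 0 to 1. At an unadjusted p under 0.05, edgeR had 1 member higher with no filter, in keratin-negative cells and with the offsets, and 0 in thinned and keratin-positive cells and without that library. DESeq2 had 1. Members called lower were 3, against 1 in keratin-positive cells, 0 in keratin-negative cells (1 at an unadjusted p under 0.05 by edgeR), 1 by DESeq2's Wald test (3 at an unadjusted p under 0.05) and 3 to 4 with a library left out. Sfn was not tested in keratin-negative cells and had no adjusted p from DESeq2, so its absence there is no lost call.

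Of 36 other p53 targets, 4 were higher and 7 lower. Higher ones were 2 with no filter, 1 in each keratin class, 1 by DESeq2's Wald test, and 1 to 3 with a library left out (1 without GFP+-labelled library 1, 2 without RFP+-labelled library 2). Lower ones were 2 at 50 CPM or more, 4 in thinned cells, 1 in keratin-positive and 3 in keratin-negative cells, 3 by DESeq2's Wald test, and 4 to 8 with a library left out (4 without RFP+-labelled library 1 and 4 without GFP+-labelled library 2). The cause was not tested, except that 50 CPM tests fewer genes.

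Sign turns of values that did not pass were, with length and GC offsets, Trp53 at 0.075 and Siva1 at 0.21. In keratin-positive cells they were Trp53 at 0.051, Sod2 at 0.083, Ercc5 at -0.33 and Pkp4 at 0.11, in keratin-negative cells Plk2 at 0.057, and in thinned cells Pkp4 at 0.019. With a library left out, Mdm2 ran from -0.28 to 0.048 (above 0 without RFP+-labelled library 1), Plk2 from -0.11 to 0.028, Siva1 from -0.12 to 0.029, Sod2 from -0.087 to 0.017 and Pkp4 from -0.14 to 0.060.

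With the replicate number as a block, 1262 genes were higher and 1214 lower, and no member's call changed (Bax -0.71, Ccng1 0.22). Across genes, the differences between libraries 1 and 2 of the populations correlated at 0.020 only, and no pairing was assumed. Those numbers follow the order of the sample titles. The column names share a number across populations only between RFP+-labelled library 1 and GFP+-labelled library 2, and that single link was not tested.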
